A study of Mus musculus with 44 samples.

Results

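The 8 genes described here (Mbp, Pmp22, Prx, Mag, Ncmap, Egr2, Sox10 and Cdh19) are known from the Schwann cell, the glial cell of peripheral nerve. Other cells also make Pmp22, Sox10 and Egr2, as given below. The 8 genes were chosen by name from the 43411 genes of the deposited table. The reason was that the genes the study related to the alignment of collagen bundles in fibrotic skin were rich in Schwann cell genes. The genes were thus selected on a relation measured in the same mice. Their differences from saline are therefore given as a description, and the calls counted for them by the rule used for all genes support nothing about them. All 8 were among the 17037 genes with a mean normalized count above 3, the genes that entered the fits.

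Schwann cells of the skin accompany the sensory and autonomic axons of the dermis. A myelinating Schwann cell wraps its membrane around a single large axon, whereas a non-myelinating Schwann cell holds several thin axons in separate grooves. Sox10 sets the identity of the lineage, Egr2 (Krox20) turns on the myelin program together with Sox10, and the products of Mbp, Pmp22, Prx, Mag and Ncmap build or anchor the sheath.

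RNA was sequenced from back skin of 44 female C57Bl/6 mice of WT genotype, 8 weeks old when injections began. Bleomycin is an antibiotic that breaks DNA and, injected under the skin, gives a fibrosis used as a model of systemic sclerosis. Each day the mice received 100 uL under the back skin, of saline (n = 10) or of bleomycin at 1 U/mL, for 2 weeks (n = 10) or 4 weeks (n = 10), and further mice given bleomycin for 4 weeks were then left without injections for 6 weeks (n = 6) or 10 weeks (n = 8). The strength of bleomycin is that of the labels, and a legend of the study gives another. The labels also count more mice than the 44 analysed here. The same biopsies had been divided for histology, which was not analysed here. The labels do not say when the saline mice were taken, and the recovery mice were older at harvest than the treated mice, so age, time since the last injection and group cannot be told apart. Each library came from its own mouse according to the study, and neither litter nor batch is named.

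The libraries held 8509094 to 15285577 reads on genes (median 11310008), with medians of 9523976 for saline and 12905996 for 10 weeks of recovery. Epidermal keratins and collagens were abundant in the table, with mean normalized counts of 61829 for Krt5 and 39232 for Col1a2, and skeletal muscle genes were too (60657 for Acta1). The central myelin and oligodendrocyte genes Mog, Mobp, Opalin and Olig2 reached at most 4 reads in any mouse. Hair follicle keratins moved with the groups, with median log2 fold changes of -9.52 and -7.97 after 2 and 4 weeks of injections, and of -2.45 and 0.12 after 6 and 10 weeks of rest. Saline mouse 1 and 2-week mouse 2 correlated least with their own groups (median Pearson r of log2 values 0.942 and 0.938), and several results are also given without them.

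Positions are given in the mouse genome build mm10, with GENCODE M21 coordinates. Pmp22 (ENSMUSG00000018217.10) spans chr11:63128982-63159547 on the plus strand, Prx (ENSMUSG00000053198.11) chr7:27499324-27520214 on the plus strand and Mag (ENSMUSG00000036634.13) chr7:30899176-30914873 on the minus strand. Ncmap (ENSMUSG00000043924.14) spans chr4:135369576-135398227 on the minus strand, Egr2 (ENSMUSG00000037868.13) chr10:67535475-67542188 on the plus strand, Sox10 (ENSMUSG00000033006.9) chr15:79154908-79165240 on the minus strand and Cdh19 (ENSMUSG00000047216.8) chr1:110888326-110977584 on the minus strand. The identifier of Mbp is ENSMUSG00000041607.14. Prx overlaps the antisense gene Gm15541 (mean normalized count 6.7), and Mbp, Ncmap and Cdh19 overlap pseudogenes or predicted transcripts with means of 9.9 or less. The strand setting of the counting is not given in the sources used here, so reads of such pairs may not be separated.

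Since Sox10 and Egr2 are known to act on genes of the sheath, the 250 bases upstream of the outermost RefSeq start (build GRCm38.p6) are shown for 4 genes of the sheath, read from 5′ to 3′ on the strand of the gene. Of the 8 genes 5 had an entry in the promoter table, the fifth being Egr2, whose window is not shown, and Mbp, Sox10 and Cdh19 had none. Capitals mark a match, on either strand, to the core letters ACAAAG bound by SOX factors or GCGNGGGCG bound by EGR factors. The windows are chr7:27499074-27499323 for Prx, chr7:30914923-30915172 for Mag, chr4:135398228-135398477 for Ncmap and chr11:63128732-63128981 for Pmp22, and none of them overlaps an annotated exon. The windows of Prx, Ncmap and Pmp22 abut the genes as given above, whereas that of Mag lies further out, and the bases just downstream of it were not found in the GENCODE transcripts of Mag.
Prx: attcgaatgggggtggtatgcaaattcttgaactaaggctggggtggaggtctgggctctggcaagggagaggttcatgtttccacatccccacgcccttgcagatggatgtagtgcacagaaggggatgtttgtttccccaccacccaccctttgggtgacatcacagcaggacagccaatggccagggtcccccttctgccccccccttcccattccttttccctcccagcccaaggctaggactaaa
Mag: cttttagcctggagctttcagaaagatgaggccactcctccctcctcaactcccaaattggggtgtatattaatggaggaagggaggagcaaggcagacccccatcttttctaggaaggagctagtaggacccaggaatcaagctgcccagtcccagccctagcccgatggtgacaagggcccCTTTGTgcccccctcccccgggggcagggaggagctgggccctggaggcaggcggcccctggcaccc
Ncmap: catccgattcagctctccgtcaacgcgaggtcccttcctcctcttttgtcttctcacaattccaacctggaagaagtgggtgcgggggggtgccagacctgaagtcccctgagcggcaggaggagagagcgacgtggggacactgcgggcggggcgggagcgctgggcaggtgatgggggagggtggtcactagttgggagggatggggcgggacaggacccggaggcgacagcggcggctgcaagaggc
Pmp22: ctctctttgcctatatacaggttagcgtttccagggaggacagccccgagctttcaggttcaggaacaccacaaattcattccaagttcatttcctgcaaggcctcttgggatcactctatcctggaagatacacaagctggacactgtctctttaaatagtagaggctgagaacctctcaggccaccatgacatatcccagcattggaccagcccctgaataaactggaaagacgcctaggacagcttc
The SOX letters occurred once, in the Mag window on the opposite strand, and the EGR letters in none of the 4 windows. Among 32817 upstream windows of this length, 16.5% held the SOX letters and 4.7% the EGR letters. The matches describe letters only, and enhancers outside these windows were not searched.

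Most of the 8 genes were higher than saline at 4 weeks of bleomycin and stayed higher at 6 weeks of recovery. At 4 weeks Cdh19 was 2.55-fold above saline, Ncmap 1.84-fold, Mag 1.66-fold, Mbp 1.65-fold, Sox10 1.62-fold and Prx 1.53-fold. Pmp22 stood at 1.13-fold, and Egr2 was the one gene below saline, at 0.805-fold. The plot of counts by mouse shows this pattern for each gene.

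**Figure D1:**
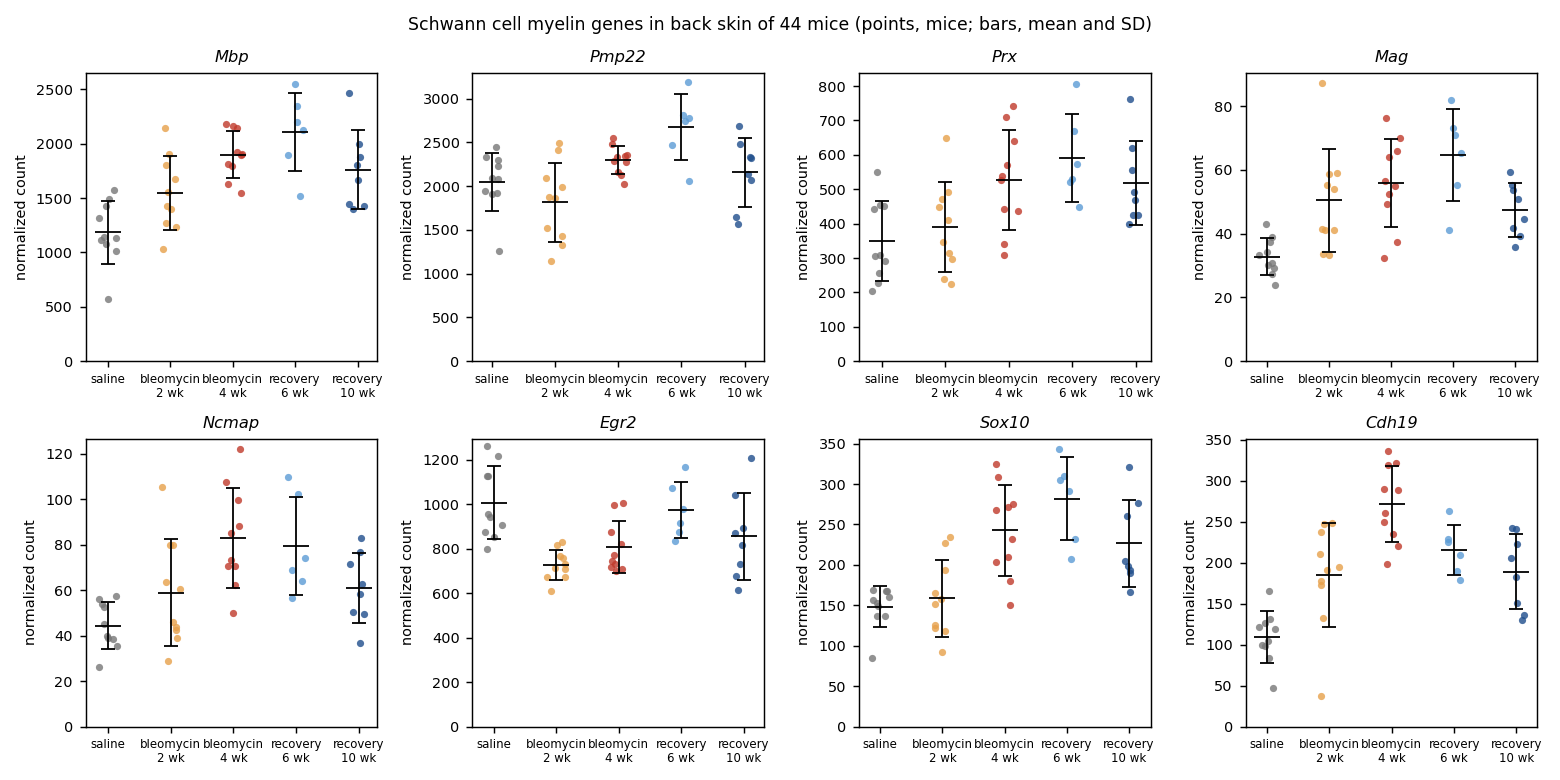
Normalized counts (y axis, from 0) of the 8 genes in each of the 44 mice, by group (x axis); points are mice, and bars give the mean and SD. Cdh19 at 4 weeks of bleomycin (199 to 336) lay above all saline mice (46.5 to 165), whereas Egr2 was lower in 8 of 10 mice at 2 weeks than in any saline mouse.

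Mbp, myelin basic protein, compacts the cytoplasmic faces of the sheath. Its lowest, median and highest normalized counts were 569, 1136 and 1577 with saline, 1031, 1488 and 2143 at 2 weeks of bleomycin, and 1548, 1899 and 2184 at 4 weeks. At 6 weeks of recovery they were 1522, 2160 and 2548, and at 10 weeks 1398, 1735 and 2468. The groups overlapped, but 9 of 10 mice at 4 weeks and 5 of 6 mice at 6 weeks of recovery exceeded every saline mouse. The log2 fold changes from saline were 0.40 ± 0.13 (SE) and 0.72 ± 0.13 at 2 and 4 weeks of bleomycin, and 0.86 ± 0.15 and 0.59 ± 0.14 at 6 and 10 weeks of recovery.

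Prx encodes periaxin, a scaffold that ties the outer Schwann cell membrane to the basal lamina. Its counts (lowest, median, highest) were 204, 307 and 549 with saline, 226, 378 and 649 at 2 weeks, and 310, 533.5 and 743 at 4 weeks. In recovery they were 448, 552 and 807 at 6 weeks, and 399.7, 480.3 and 761 at 10 weeks. The spread within groups was wide, so that 4 of 10 mice at 4 weeks and 3 of 6 at 6 weeks of recovery were above all saline mice. The log2 fold changes were 0.16 ± 0.18 (SE) and 0.61 ± 0.18 under bleomycin and 0.81 ± 0.21 and 0.61 ± 0.19 in recovery.

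Mag, a cell adhesion molecule of the membrane that faces the axon, was the scarcest of the 8 genes, with 20 to 97 reads per mouse. Its lowest, median and highest counts were 23.85, 32.0 and 43.2 with saline, 33.25, 47.6 and 87.1 at 2 weeks, and 32.3, 55.8 and 76.35 at 4 weeks. Values in recovery were 41.1, 68.1 and 82.0 at 6 weeks, and 35.9, 47.6 and 59.4 at 10 weeks. Mag was already high at 2 weeks, when its log2 fold change was 0.57 ± 0.15 (SE), against 0.73 ± 0.15 at 4 weeks. The recovery values were 0.94 ± 0.18 and 0.52 ± 0.16. The highest 2-week value came from mouse 2, whose library stood apart from its group.

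Ncmap encodes a membrane protein of noncompact myelin. Its counts were 26.2, 42.5 and 57.3 (lowest, median, highest) with saline, 28.7, 53.2 and 106 at 2 weeks, and 50.2, 79.4 and 122 at 4 weeks. In recovery they were 56.5, 71.5 and 109.7 at 6 weeks, and 36.8, 60.7 and 82.8 at 10 weeks. At 4 weeks 9 of 10 mice were above all saline mice. On the log2 scale the differences from saline were 0.34 ± 0.19 (SE), 0.88 ± 0.19, 0.82 ± 0.21 and 0.45 ± 0.20 in the order of the groups.

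Pmp22, a tetraspan protein of compact myelin that many other cells also make, differed less. The lowest, median and highest counts were 1254, 2086 and 2442 with saline, 1146, 1868 and 2489 at 2 weeks, and 2023, 2308 and 2553 at 4 weeks. Recovery gave 2058, 2766 and 3187 at 6 weeks, and 1566, 2231 and 2690 at 10 weeks. Only at 6 weeks of recovery did most mice (5 of 6) exceed all saline mice. The log2 fold changes were -0.20 ± 0.12 (SE) and 0.18 ± 0.12 under bleomycin, and 0.39 ± 0.13 and 0.07 ± 0.12 in recovery.

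Sox10, the lineage transcription factor, which melanocytes also use, was at the saline level after 2 weeks. Its lowest, median and highest counts were 84.5, 155 and 169 with saline, 91.7, 155 and 234 at 2 weeks, and 151, 250.4 and 324.5 at 4 weeks. In recovery they were 208, 298 and 343 at 6 weeks, and 166, 202 and 321 at 10 weeks. All 6 mice at 6 weeks of recovery and 9 of 10 at 4 weeks were above every saline mouse. Fold changes on the log2 scale were 0.07 ± 0.15 (SE), 0.69 ± 0.15, 0.93 ± 0.17 and 0.60 ± 0.16.

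Cdh19, a cadherin of the Schwann cell lineage, showed the largest differences from saline of the 8 genes at all 4 times in the limma fit. At 6 weeks of recovery that order did not hold without saline mouse 1 and 2-week mouse 2 (Sox10 0.95, Mag 0.90, Cdh19 0.89), and Mag equalled Cdh19 by edgeR (0.98 each) and DESeq2 (0.97 each). Its lowest, median and highest counts were 46.5, 112 and 165 with saline, 37.7, 193 and 249 at 2 weeks, and 199, 274.5 and 336 at 4 weeks. At rest they were 179, 217 and 263 at 6 weeks, and 129, 194 and 242.5 at 10 weeks. The groups at 4 weeks of bleomycin and 6 weeks of recovery did not overlap with saline. The value of 37.7 came again from 2-week mouse 2, and the other 9 mice of that group were at 132 or more. The log2 fold changes were 0.67 ± 0.21 (SE), 1.35 ± 0.21, 1.02 ± 0.25 and 0.81 ± 0.23.

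Egr2, the zinc finger factor of myelination, which is also an immediate early gene in immune cells, fibroblasts and hair follicle, ran the other way. Its lowest, median and highest counts were 801, 951 and 1264 with saline, 612, 723 and 832 at 2 weeks, and 698, 760.5 and 1007 at 4 weeks. In recovery they were 837.5, 948 and 1169 at 6 weeks, and 614, 844 and 1209 at 10 weeks. At 2 weeks 8 of 10 mice, and at 4 weeks 6 of 10, were below every saline mouse. The log2 fold changes were -0.46 ± 0.10 (SE), -0.31 ± 0.10, -0.04 ± 0.11 and -0.25 ± 0.10.

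A DEG was defined as a gene that differed by more than 1.5-fold (0.585 on the log2 scale) at a Benjamini-Hochberg adjusted p below 0.05 in the limma fit over all genes. By this rule 1 of the 8 genes was higher than saline at 2 weeks of bleomycin (Cdh19), where 9.3% of all genes tested were higher. At 4 weeks 6 of 8 were higher, against 10.5% of all genes, and Pmp22 and Egr2 were the exceptions. The same 6 genes were higher at 6 weeks of recovery, against 3.33% of all genes. At 10 weeks 4 of 8 were higher (Mbp, Prx, Sox10 and Cdh19), against 2.05%. None was called lower at any time, against 7.43%, 7.37%, 1.71% and 0.998% of all genes in the order of the groups. Egr2, lower at 2 and 4 weeks, passed the adjusted p threshold there and missed the call by the fold threshold alone. The genes were chosen on values of the same mice, so the counts are not evidence about them. The median log2 fold change of the 8 genes was 0.25, 0.71, 0.84 and 0.56 in turn, and that of all genes tested was 0.00 in each comparison. Groups that did not overlap with saline, upward, were seen for Cdh19 at 4 weeks (4.31% of all genes) and for Sox10 and Cdh19 at 6 weeks of recovery (1.41%), and for 0 of the 8 at 2 weeks (3.44%) and 10 weeks of recovery (0.282%). In bulk skin a change in the number of Schwann cells and a change in RNA per cell cannot be told apart.

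**Figure D2:**
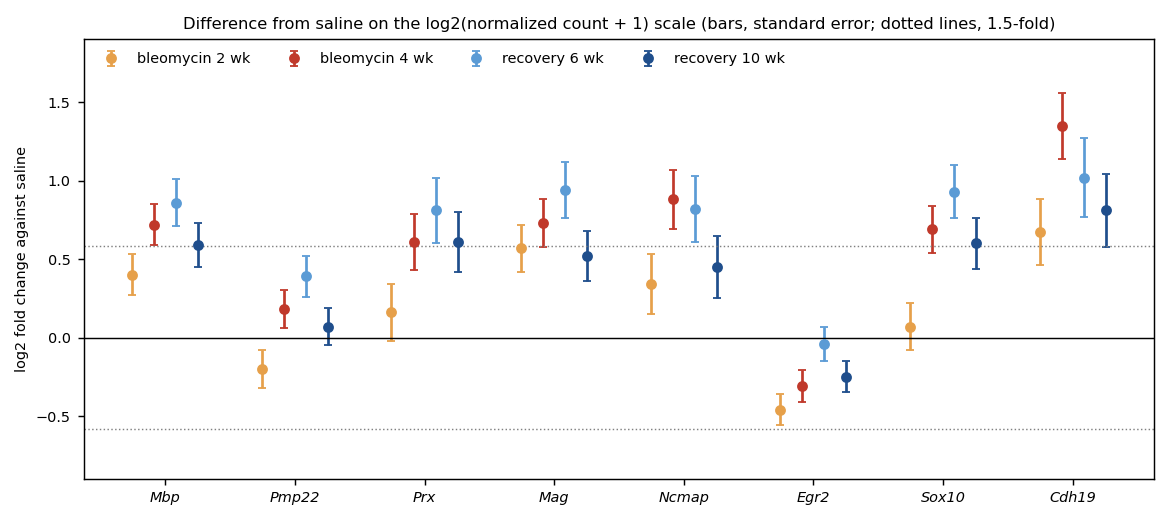
Log2 fold change against saline (y axis) of each of the 8 genes (x axis) at the 4 times, on the log2(normalized count + 1) scale; bars are standard errors and dotted lines mark 1.5-fold. Cdh19 at 4 weeks (1.35) stands highest, and Egr2 lies below 0 at all 4 times.

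The count at 10 weeks of recovery rested on few mice. Without mouse 4 or without mouse 7 of that group 0 of the 8 genes were called, without mouse 5 only 1, and without saline mouse 1, 2, 4 or 6 there were 2. In the 10-week group, mice 4 and 7 had the highest mean log2 level of the 8 genes (8.78 and 8.58, against 8.13 to 8.57 in the other 6). They also had the highest mean log2 level of the 7 skeletal muscle genes (15.23 and 15.44, against 14.39 to 14.87). The same 2 mice had the lowest levels of hair keratins (7.73 and 8.58, against 11.2 to 14.48) and of melanocyte genes (5.61 and 5.39, against 6.35 to 8.24), and the lowest median correlation with their group (0.947 and 0.954). Leaving out saline mouse 1 and 2-week mouse 2 together left 2 genes called after 10 weeks of rest and 6 after 6 weeks, and 1 and 5 after 2 and 4 weeks of injections. Of all 17037 genes 304, 485, 1454 and 1638 were higher in that fit, in the same order, against 349, 567, 1585 and 1797 in the main fit. The part of muscle, hair follicle and melanocytes in these values was not tested.

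Levels between genes were compared per kilobase of exon, counting each base in any annotated exon of the gene (8.469 kb for Mbp, 3.398 kb for Egr2). Genes whose transcripts in skin are shorter than this are understated, so the order of genes depends on the length used. With saline the median normalized count per kilobase was 886 for Pmp22, 280 for Egr2, 134 for Mbp, 55.0 for Prx, 50.7 for Sox10, 26.2 for Cdh19, 19.1 for Ncmap and 7.86 for Mag. At 4 weeks of bleomycin the per-kilobase level was 980 for Pmp22 and 224 for both Mbp and Egr2. Neighbouring groups in the order of each gene's means differed by more than the larger of their SDs in 6 of 32 steps. For Mbp the order was saline (mean 1184 ± 289, SD), 2 weeks (1544 ± 341), 10 weeks of recovery (1760 ± 363), 4 weeks (1900 ± 216) and 6 weeks of recovery (2104 ± 360). Among neighbours in this order, only the step from saline to 2 weeks was larger than the larger SD. For Sox10 the one such step was between 2 weeks of bleomycin (159 ± 47.5) and the 10-week recovery group (226 ± 53.2).

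Comparisons that leave saline out ask how the genes moved with continued injection and with rest. All 8 genes were higher at 4 than at 2 weeks of bleomycin, by 0.14 to 0.67 on the log2 scale (median 0.41), and 2 of 8 were DEGs, against 2.35% of all genes in either direction. Sox10 differed by 0.63 (95% CI 0.32 to 0.93, adjusted p = 0.00958, limma, n = 10 and 10). Cdh19 differed by 0.67 (0.25 to 1.10, adjusted p = 0.0493, limma). The adjusted p-values are not independent of the choice of genes, since bundle alignment was measured in these mice too.

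The 2 calls were not equally firm. For Cdh19 the difference was 0.44 without saline mouse 1 and 2-week mouse 2, under the fold threshold (adjusted p = 0.03, limma), and the call was lost when any 1 of 34 of the 44 mice was left out. By edgeR on the recovered reads it was 0.55 (adjusted p = 0.0589). For Sox10 the call held in edgeR (0.61, adjusted p = 0.00915) and DESeq2 (0.61, adjusted p = 0.00246) and without the 2 mice (0.59, adjusted p = 0.0157, limma). Among the single mice left out, it was lost only without 2-week mouse 7 (0.55, adjusted p = 0.0239) or 4-week mouse 9 (0.58, adjusted p = 0.0242), in both cases because the difference fell under the threshold of 0.585. Without either of those mice 0 of the 8 genes were DEGs in this comparison. The 9 melanocyte genes, which could share Sox10, were all higher at 4 than at 2 weeks as well (median 1.26, 1 of 9 a DEG), and their part in the Sox10 difference was not tested.

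Pmp22 passed the adjusted p but not the fold threshold between 4 and 2 weeks (0.38, 95% CI 0.14 to 0.61, adjusted p = 0.0431, limma). For Ncmap the difference was 0.54 (adjusted p = 0.075), for Prx 0.45 (0.133), for Mbp 0.32 (0.143), for Mag 0.16 (0.602) and for Egr2 0.14 (0.417), all by limma. The interval for Mag ran from -0.15 to 0.47, so a difference of more than 1.5-fold between the bleomycin times lay outside it.

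Between 4 weeks of bleomycin and 6 weeks of recovery 0 of the 8 genes were DEGs by limma, edgeR or DESeq2, whereas 11.9% of all genes were, and 1 gene (Egr2, 0.27) had an unadjusted p under 0.05. The differences ranged from -0.33 for Cdh19 (95% CI -0.82 to 0.17) to 0.27 for Egr2 (0.05 to 0.50), with a median of 0.20. For Mbp the difference was 0.14 (-0.17 to 0.44) and for Sox10 0.23 (-0.12 to 0.58). The intervals of 7 of the 8 genes, all but Egr2, reached below 0. In a fit of the compared groups only, Cdh19 stood at -0.33 with an adjusted p of 0.0326 (limma), under the fold threshold.

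At 10 weeks of recovery against 4 weeks of bleomycin the 3 tools again called 0 of the 8 genes, against 15.8% of all genes, and 2 had an unadjusted p under 0.05. These were Cdh19, at -0.54 (95% CI -1.0 to -0.09, adjusted p = 0.0586, limma), and Ncmap, at -0.43 (-0.83 to -0.03, adjusted p = 0.0884, limma). For Cdh19 the adjusted p was 0.0259 by edgeR (-0.55), 0.0217 by DESeq2 (-0.53), 0.00345 by limma in the compared groups only (-0.54) and 0.000995 by limma without saline mouse 1 and 2-week mouse 2 (-0.54), so that there the fold threshold alone kept it from a call. It was called when 4-week mouse 6, or mouse 3 or 7 of the 10-week group, was left out. Between the recovery times all 8 genes were lower at 10 than at 6 weeks, with log2 differences from -0.42 to -0.20 (median -0.29), and 0 were called by limma, edgeR or DESeq2 (0.088% of all genes were by limma). There Mag (-0.42, 95% CI -0.80 to -0.05) and Pmp22 (-0.32, -0.60 to -0.04) had an unadjusted p under 0.05.

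**Figure D3:**
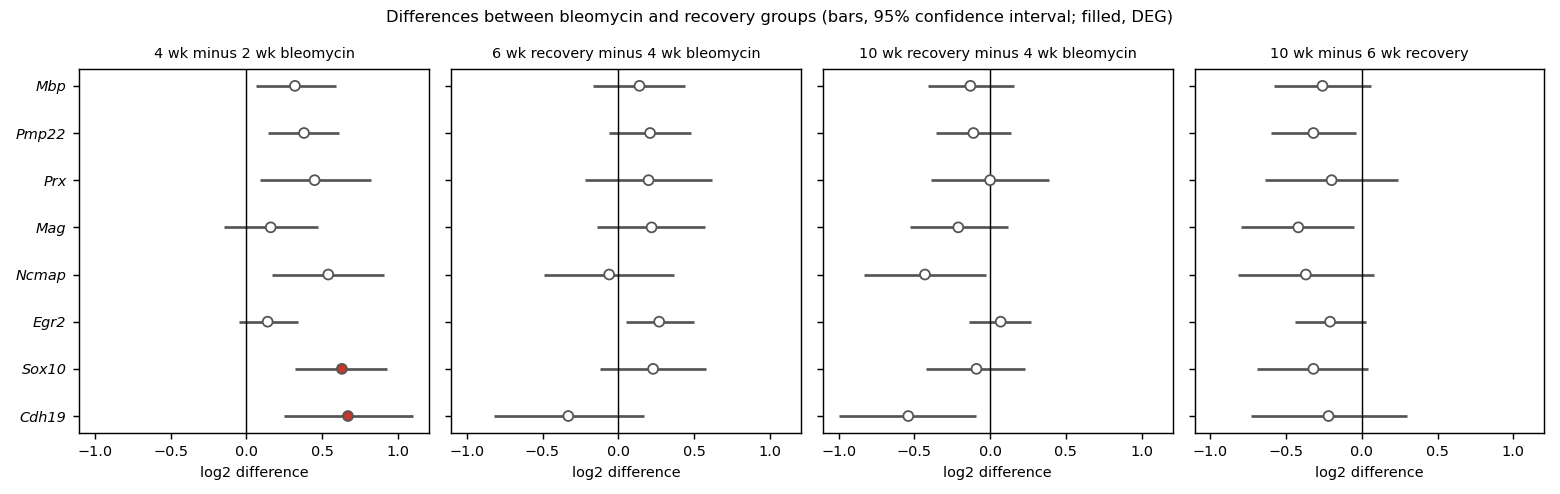
Log2 differences (x axis) of the 8 genes (y axis) between bleomycin and recovery groups in 4 comparisons; circles are estimates, lines are 95% confidence intervals and filled circles are DEGs. The 8 estimates lie above 0 for 4 against 2 weeks of bleomycin and below 0 for 10 against 6 weeks of recovery, and only Sox10 (0.63) and Cdh19 (0.67) are filled.

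Other genes of the Schwann cell were read from textbook lists. The lists were drawn up with earlier results of these mice known. The sheath list also moved with the 8 genes from mouse to mouse (r = 0.91, group means removed). Counts and adjusted p-values of these lists are therefore a description and no independent support for the 8 genes. Over all genes tested 9.3%, 10.5%, 3.33% and 2.05% were higher than saline in the order of the groups, and 7.43%, 7.37%, 1.71% and 0.998% were lower. Of 16 further genes of the myelin sheath, all tested, 4 rose and 1 fell at 2 weeks against saline, 14 rose and 1 fell at 4 weeks, 11 rose at 6 weeks of recovery and 5 at 10 weeks. The median log2 fold changes were 0.52, 0.84, 0.86 and 0.52. Without saline mouse 1 and 2-week mouse 2, 4, 11, 10 and 3 of the 16 rose. By edgeR on the recovered reads 7 rather than 4 rose at 2 weeks.

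Gjb1, the gap junction protein of noncompact myelin, rose by 1.63 ± 0.27 (SE) at 4 weeks (adjusted p = 3.63e-06, limma). Nfasc, an adhesion protein of nodes and paranodes, rose by 1.37 ± 0.15 (adjusted p = 1.22e-09). Pmp2, a fatty acid binding protein of myelin, rose by 2.07 ± 0.54 (adjusted p = 0.00217), from a median of 4.09 normalized counts with saline to 16.5, and every group but the 4-week one held at least 1 mouse with 0 reads. Fa2h fell by 1.5 at 2 weeks (adjusted p = 4.2e-07, limma) and by 1.34 at 4 weeks. It hydroxylates fatty acids of myelin lipids but is also a gene of sebaceous glands and epidermis.

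Among 12 markers of immature, non-myelinating and all Schwann cells, 0 were DEGs at 2 weeks by limma (3 at an unadjusted p under 0.05, and 1 DEG by edgeR and by DESeq2), 7 rose at 4 weeks, 7 rose and 1 fell at 6 weeks of recovery, and 1 rose at 10 weeks. The medians were 0.05, 0.67, 0.62 and 0.40. Without saline mouse 1 and 2-week mouse 2, 6 rose at 4 weeks, and 5 rose and 0 fell at 6 weeks of recovery. Gfap rose by 1.91 ± 0.44 (SE) at 4 weeks (adjusted p = 0.000512, limma) but from very low counts, with a median of 1.71 with saline and 9.37 at 4 weeks. Gfra3, a receptor for artemin, rose by 1.13 ± 0.19 (adjusted p = 4.69e-06). The study had related Gfra3 to bundle alignment in these same mice, so its values here and below are a description. At 6 weeks of recovery Foxd3, a neural crest factor, rose by 1.12 ± 0.25 (adjusted p = 0.00243) and Sox2, a factor of immature Schwann cells, by 1.09 ± 0.31 (adjusted p = 0.0204). Ngfr and Erbb3 were not called at any time.

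Sox2, Foxd3, Gfra3 and Ncam1 were also DEGs between 4 and 2 weeks of bleomycin, which made 4 of 12 in that list against 2 of 16 in the sheath list. Of all genes 2.35% were DEGs there in either direction. Sox2 differed by 1.08 (adjusted p = 0.0124, limma), Foxd3 by 0.95 (adjusted p = 0.00589), Gfra3 by 0.87 (adjusted p = 0.00391) and Ncam1 by 0.82 (adjusted p = 0.00876). Whether the lists differ was not tested.

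**Figure D4:**
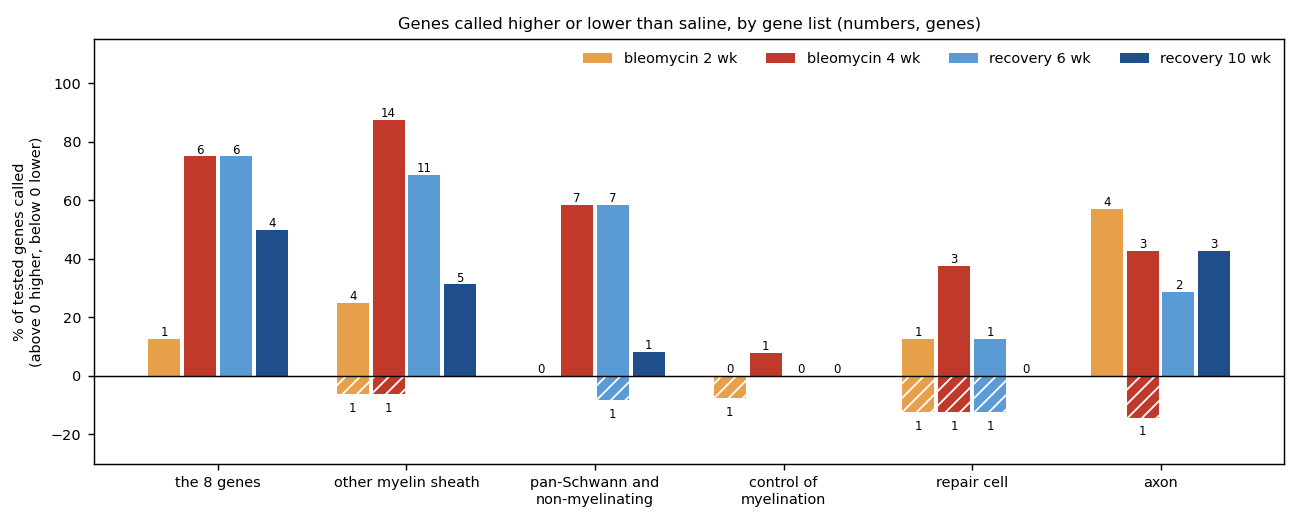
Share of tested genes (y axis, percent) in each gene list (x axis) that were DEGs against saline, higher above 0 and lower below 0 (hatched), at the 4 times; the numbers are genes. The sheath list reaches 14 of 16 at 4 weeks, and the list on control of myelination 1 of 13.

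Few regulators of myelination were DEGs. Of 14 such genes 13 were tested, and 1 fell at 2 weeks and 1 rose at 4 weeks. At those times 8 and 7 of the 13 had an unadjusted p under 0.05 (limma). Bulk skin does not show which cells made these RNAs. In recovery 0 were DEGs by limma, edgeR or DESeq2, with 2 genes at 6 weeks and 1 at 10 weeks at an unadjusted p under 0.05. The medians were -0.14, 0.02, 0.01 and 0.02. Itgb4, a laminin receptor subunit that epidermis also uses, rose by 0.72 ± 0.24 (SE) at 4 weeks (adjusted p = 0.0155, limma). That call was lost without saline mouse 1 and 2-week mouse 2, and by DESeq2, where 0 of the 13 were DEGs at 4 weeks. Lama2, the laminin chain of the Schwann cell basal lamina and of muscle, fell by 0.67 at 2 weeks (adjusted p = 9.24e-05). The Egr2 cofactor genes Nab1 and Nab2 stood at 0.18 and -0.41 at 4 weeks and were not called.

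Of 8 genes of the repair Schwann cell that forms after nerve injury, 1 rose and 1 fell at 2 weeks, 3 rose and 1 fell at 4 weeks, 1 rose and 1 fell at 6 weeks of recovery, and 0 were DEGs at 10 weeks by limma, edgeR or DESeq2 (3 at an unadjusted p under 0.05). At 2 weeks 9.3% of all genes were higher and 7.43% lower, near 1 of 8 in each direction. Without saline mouse 1 and 2-week mouse 2, 0 of the 8 were DEGs at 6 weeks of recovery. Artn, the ligand that signals through Gfra3, rose by 1.25 ± 0.21 (SE) at 4 weeks (adjusted p = 7.36e-06, limma), and Atf3, an injury response factor, by 0.92 ± 0.18 at 2 weeks (adjusted p = 8.13e-05). Olig1 rose by 0.86 ± 0.34 at 4 weeks (adjusted p = 0.0423). Shh fell by 3.71 at 2 weeks (adjusted p = 5.09e-06), and it is a gene of the growing hair follicle, whose keratins fell in the same groups. Jun, the central factor of the repair cell, stood at 0.06, 0.08, 0.22 and 0.36 and was not called. Which cells of the skin made the RNA of these genes was not tested.

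A mean above 3 was reached by 7 of the 12 axon genes present. Nefl, Nefm, Snap25, Calca and Tac1 fell short, with mean normalized counts of 1.604, 1.251, 0.7555, 2.466 and 1.853. Whether the genes that were tested came from axons or from other cells of the skin was not tested. Of the 7 tested, 4 rose at 2 weeks, 3 rose and 1 fell at 4 weeks, 2 rose at 6 weeks of recovery and 3 at 10 weeks. Uchl1, an abundant neuronal hydrolase, had a median count of 14.6 with saline (range 7.11 to 20.6) and 58.8 at 4 weeks (31.3 to 119.7), with no overlap, and it rose by 2.20 ± 0.24 (SE, adjusted p = 4.75e-10, limma). It was at 36.9 after 10 weeks of recovery, still higher by 1.52 (adjusted p = 0.000161). Gap43, a growth cone protein that Schwann cells can also make, rose by 1.75 ± 0.26 at 4 weeks (adjusted p = 5.4e-07), and Prph, a filament of thin axons, by 1.70 ± 0.32 (adjusted p = 3.08e-05) at no more than 16 reads per mouse. Th, the catecholamine enzyme, fell by 0.79 at 4 weeks (adjusted p = 0.0191).

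The genes were also compared within groups, after each group's mean had been taken off the log2 values of the 44 mice. All genes share the library and its depth in this comparison, and the values are a description without a test. Mbp correlated with the mean of the other 7 genes at a Pearson r of 0.86, Prx at 0.81, Pmp22 at 0.76, Ncmap at 0.71, Sox10 at 0.63, Mag at 0.40 and Cdh19 at 0.33, whereas Egr2 stood at -0.25. The highest pair was Mbp with Pmp22 (0.84). Over the 21 pairs without Egr2, r ran from -0.09 to 0.84, and over the 7 pairs with Egr2 from -0.42 to 0.00. The value of -0.09 was that of Mag with Cdh19. In that pair 2-week mouse 2 had the highest Mag and the lowest Cdh19 count of its group. By rank (Spearman) Cdh19 and Mag each stood at 0.46 against the mean of the other 7. Cdh19, with the largest difference from saline at 4 weeks, was thus not the gene that followed the others most closely from mouse to mouse.

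**Figure D5:**
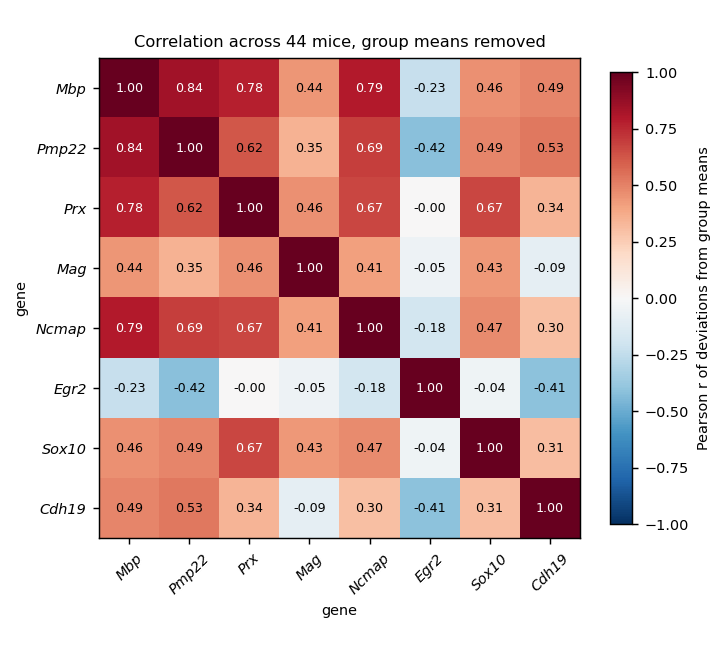
Pearson r between the 8 genes (both axes) across 44 mice after removal of group means, from -1 (blue) to 1 (red). Mbp, Pmp22, Prx and Ncmap form a block of r between 0.62 and 0.84, and the row of Egr2 lies between -0.42 and 0.00.

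The 10 genes whose deviations were most like the mean of the 8, out of 13508 with a mean count of at least 30, included Aatk (r = 0.89), Cldn19 (0.87), Pllp (0.85), Hspa12b (0.83), Mras (0.82), Nr2f2 (0.82), Vwa1 (0.82), Mal (0.82) and Sfrp5 (0.81). The median over all these genes was -0.01. The mean of the 8 also correlated with the mean of the other sheath genes (0.91), the endothelial genes (0.78), the skeletal muscle genes (0.67), the pan-Schwann genes (0.66), and the fat cell and fibroblast genes (0.58 each). With the axon genes r was 0.19, with hair keratins -0.24 and with log2 library depth 0.18.

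Because endothelial and muscle genes moved with the 8 from mouse to mouse, their group differences are given here. Over all genes tested 9.3%, 10.5%, 3.33% and 2.05% were higher than saline in the order of the groups. Emcn, Esam and Robo4 of the endothelial list were among the genes that the study related to bundle alignment in these mice. The endothelial values are therefore a description, as for the 8 genes. Of 7 endothelial genes 2 rose at each bleomycin time and 5 at 6 weeks of recovery, with 0 DEGs after 10 weeks by limma, edgeR or DESeq2 (5 at an unadjusted p under 0.05), with medians of 0.39, 0.54, 0.72 and 0.52. The mean log2 level of the list ran from 7.44 to 8.35 with saline and from 8.49 to 8.86 at 6 weeks of recovery. Of 7 skeletal muscle genes 1 (Myh1) was a DEG at 4 weeks and at each recovery time, with medians of -0.04, 0.00, 0.22 and 0.27, and the level of the list ran from 13.29 to 14.84 with saline and from 14.50 to 15.32 at 6 weeks of recovery. The lowest value, 13.29, belonged to saline mouse 1, which also had the lowest mean of the 8 genes (7.50). The part of vessels or muscle in the differences of the 8 genes was not tested.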

How the data were processed

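RNA of back skin from 44 mice was sequenced from stranded mRNA libraries. Per the labels and the study's methods, the authors aligned the reads with STAR 2.4.0 to mm10 and divided gene counts by 1 size factor per mouse with DESeq2 1.12.3, and they deposited the resulting signal as normalized counts. The counting tool, strand setting and annotation are not given in the sources used here. Groups followed the labels, and 0 columns were left without a sample. Of 43411 gene IDs, 42929 (98.9%) matched a symbol.

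Dividing by the value of 1 read gave whole reads for 100.0% of values in every mouse (tolerance 0.01). The main test was limma 3.58.1 (trend) on log2(normalized count + 1) for the 17037 genes with a mean above 3, with the 5 groups in 1 fit, and Benjamini-Hochberg adjustment over all genes. A fold change on this scale understates low genes.

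Alternatives were a pseudocount of 0.1, other filters, other fold thresholds, TMM rescaling, edgeR 4.0.16 and DESeq2 1.42.0 on recovered reads, fits of the compared groups only, a replicate block, and leaving out mice. The scripts were tested on simulated data. The members and gene lists were chosen with earlier results of these data known. Genes named are the 8 members, up to 4 DEGs of each list with the largest change from saline, and the 10 nearest genes, of which 1 is not reported here; Ncam1, Ngfr, Erbb3, Nab1, Nab2, Jun and, as tissue checks, Krt5, Acta1, Mog, Mobp, Opalin and Olig2 were named after their values were seen.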

Additional observations from a re-analysis of the deposited data

Results flagged for a closer look

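In 40 sets of 1 gene in 1 group, 3 held a mouse far from the others by Dixon's criterion, and chance alone marks about 1 in 20 groups. Pmp22 in saline mouse 1 had a normalized count of 1254, against 1907 or more in the other saline mice. Mag in 2-week mouse 2 had 87.1, the highest of its group, and the same mouse had the lowest Cdh19 count of that group (37.7). Sox10 in saline mouse 2 had 84.5, while the other Sox10 values with saline were at 136 or more.

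The difference between the bleomycin times was itself tested, with limma and adjustment over all genes. It passed for Sox10 (0.63 on the log2 scale) and for Cdh19 (0.67), and the call for Cdh19 was lost under most alternatives.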

How the results depend on the processing

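The median log2 differences of the 8 genes kept their direction under every alternative run, while counts of calls moved. At 2 weeks against saline 1 of the 8 was called, and edgeR, DESeq2 and a threshold of 0.5 on the log2 scale gave 2, no fold threshold gave 4 (with Egr2 the one that was lower) and a fit of the compared groups only gave 0. Of all 17037 genes 1585 were higher at 2 weeks in the main fit, 1648 by edgeR, 1596 by DESeq2 and 1471 in the compared groups only. No share of all genes is given for a threshold of 0.5 or none. Counts at those thresholds, for the 8 and for the lists, thus say nothing about these genes in particular. At 10 weeks of recovery 4 became 2 by edgeR, by DESeq2 and without saline mouse 1 and 2-week mouse 2. Of all genes 349 were higher there in the main fit, 329 by edgeR, 373 by DESeq2 and 304 without the 2 mice. Between 4 and 2 weeks of bleomycin 2 became 1 with a pseudocount of 0.1, no filter, TMM, edgeR, DESeq2, the compared groups only and without the 2 mice. Of all genes 253 were higher there in the main fit, and from 208 (compared groups only) to 278 (DESeq2) in these settings. Of the 56 genes in the 5 other Schwann cell, myelin and nerve lists, 9 were called higher at 2 weeks, against 14 at a threshold of 0.5 and 18 with none, and without a threshold 7 rather than 3 were called lower at 2 and at 4 weeks. At 6 weeks of recovery 2 were called lower, against 1 with a pseudocount of 0.1 and 0 with no filter, in the compared groups only and without the 2 mice. At 10 weeks 0 were called lower by limma and 1 by edgeR, with 27 of 56 at an unadjusted p under 0.05 in either direction. With 1 mouse left out, the calls among the 8 ranged from 0 to 2 at 2 weeks, from 0 to 4 at 10 weeks of recovery, from 0 to 3 for 4 against 2 weeks and from 0 to 1 for 10 weeks of recovery against 4 weeks of bleomycin. Those of the 56 ranged from 8 to 14 higher at 2 weeks (14 without 2-week mouse 7) and from 0 to 2 lower at 6 weeks of recovery (0 without saline mouse 1 or recovery mouse 1, 2, 3, 5 or 6, and 1 without saline mouse 3, 4, 5, 6 or 10). At 2 weeks 0 of the 8 remained without saline mouse 1, and 2 were called without saline mouse 2, 7 or 10 or 2-week mouse 1, 5, 6, 7 or 8. The causes were not tested.

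Replicate numbers are shared between groups but belong to different mice. Same-numbered mice did not deviate together (median correlation -0.0229, against -0.00277 for other pairs, and 6 of 44 mice correlated best with their own number). With the replicate number as a block, the 56 genes called higher at 10 weeks of recovery went from 9 to 14, and no other count moved by over 1.5 times. Mag, Ncmap and the low axon genes are limited by depth, Mag by as few as 20 reads in a mouse.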

Other observations

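Genes of other cell types of the skin changed in the same groups. The shares of all genes higher or lower than saline are those given above. Of 9 melanocyte genes 7 fell at 2 weeks of bleomycin (median -1.57), among them Oca2, by 2.65 on the log2 scale (adjusted p = 0.00222, limma), Slc45a2, Mlana and Tyr. At 4 weeks 0 of the 9 were DEGs by limma (median -0.12, 1 at an unadjusted p under 0.05), and 4 were by edgeR and by DESeq2. At 6 weeks of recovery the median was -1.07, and 1 of the 9 was above saline. There 0 were DEGs by limma (5 at an unadjusted p under 0.05), 3 by edgeR and 6 by DESeq2. After 10 weeks the median was -0.36, with 0 DEGs by limma, edgeR or DESeq2 (0 at an unadjusted p under 0.05). Of 6 macrophage genes 3 rose and 1 fell at both bleomycin times. Itgam rose by 1.57 ± 0.19 (SE) at 2 weeks (adjusted p = 9.96e-09, limma), and Cd163, a scavenger receptor of resident macrophages, fell by 1.76 at 6 weeks of recovery (adjusted p = 4.12e-06). Of 5 T cell genes 3 rose at 2 weeks and 1 at 4 weeks, including Cd4 at 4 weeks (1.10, adjusted p = 0.000176).

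Of 5 fat cell genes 2 fell at 2 weeks and 3 at 4 weeks, and Lep, the leptin gene, fell by 2.43 at 2 weeks (adjusted p = 2.38e-09, limma). Of 5 fibroblast genes 3 fell at 2 weeks and 1 at each later time, and Pdgfra stood at -1.24 at 2 weeks (adjusted p = 3.72e-11). Of 4 epidermal keratins 0 were DEGs at any time by limma, edgeR or DESeq2, with at most 1 at an unadjusted p under 0.05 in each comparison with saline.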
